A study of Homo sapiens with 3 samples.

Results

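The genes described here copy the genome or prepare a cell to do so: 56 human genes of DNA replication and S-phase entry, chosen by symbol for their known role and looked up in a table of 17576 genes. All 56 were in the table, and all 56 had a mean of at least 1 FPKM (fragments scaled to transcript length and to library size) over the 3 libraries, the filter that left 11327 genes. RNA was sequenced from LX-2, an immortalised line of human hepatic stellate cells, which are the liver cells that turn into matrix-producing myofibroblasts during fibrosis. One culture received transforming growth factor beta 1 (TGF-b1) with 10 μM DP, a compound that the labels name only by these letters (the study's title speaks of a natural small molecule). Another received TGF-b1 alone, and the third received DMSO. All were treated for 48 h, and all were grown in medium with fetal bovine serum. The labels give neither the dose of TGF-b1 nor whether DMSO was also in the TGF-b1 cultures. Each group was 1 library, so every comparison below is of single libraries, without replicates and without a p-value. LX-2 cells carry the SV40 large T antigen, a viral protein known to bind the RB family, which limits them as a model of how normal stellate cells enter S phase.

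Replication begins in G1, when the origin recognition complex, CDC6 and CDT1 load the ring of MCM2 to MCM7 onto DNA as an inactive helicase. Cyclin E with CDK2, and CDC7 with DBF4, then recruit CDC45 and the GINS complex and start the helicase, after which primase, the polymerases, the sliding clamp PCNA and its loader RFC copy both strands. Most of these genes are known targets of the E2F transcription factors, which RB holds back until the G1 cyclins and their kinases release them. TGF-beta is known to slow the cycle of many epithelial cells in G1, and activated stellate cells are known to divide.

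The promoters were searched for the letters of E2F sites. RefSeq (GRCh38.p14) listed a window of 250 bases before to 50 bases after the start for 48 of the 56 genes. The classical E2F site was searched on both strands as TTTCCCGC, TTTGGCGC, TTTCGCGC or TTTGCCGC, with overlapping matches counted separately. It was present in 22 of the 48 windows (45.8%), against 537 of 9401 windows (5.71%) over all genes kept. Of 31 promoters of mitosis and chromosome segregation genes, 3 (9.68%) held it. The cell cycle homology region of mitotic genes, searched as TTTGAA or TTCGAA, had the opposite distribution, in 3 of 48 replication promoters (6.25%), 25 of 31 mitotic promoters (80.6%) and 10.8% of all. CCAAT was in 58.3% of the replication promoters, 74.2% of the mitotic promoters and 37.2% of all, and the GC box GGGCGG was in 75.0%, 64.5% and 72.2%. A match is a description of letters and not evidence of binding. The members were chosen by known role and most are known E2F targets, so the share describes the list and not these cells.

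**Figure D1:**
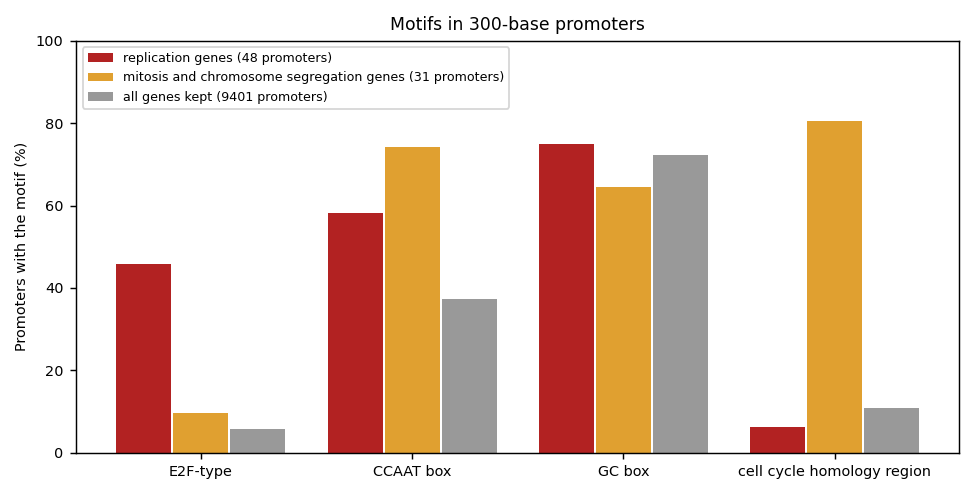
Share of RefSeq promoters (percent, vertical axis) that hold each of 4 motifs, in replication genes, in mitosis genes and in all genes kept. The E2F-type site stands at 45.8% in replication genes and 9.68% in mitosis genes, and the cell cycle homology region at 6.25% and 80.6%.

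The 160 bases before the start are shown for the members at the ends of each comparison, and for the member with most sites. Capitals mark E2F-type matches on either strand. MCM6, which was lower by more than 1 on the log2 scale in TGF-b1+DP than in DMSO, held 4 matches, in a pair of 12-base stretches that each read as a site on both strands. POLE had the largest negative difference in TGF-b1 against DMSO, TYMS the largest negative in TGF-b1+DP against TGF-b1, and E2F2 and E2F7 the lowest and highest in TGF-b1+DP against DMSO. RFC4 had the largest positive difference in TGF-b1 against DMSO among members with a listed promoter; RPA3 was higher and is named only. The bases shown hold no match in E2F7 and RFC4.
MCM6 (chr2:135876444-135876603, minus strand): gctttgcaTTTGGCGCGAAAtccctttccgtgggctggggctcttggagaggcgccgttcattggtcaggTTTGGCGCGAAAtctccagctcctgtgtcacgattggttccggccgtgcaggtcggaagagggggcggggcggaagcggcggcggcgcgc
POLE (chr12:132687343-132687502, minus strand): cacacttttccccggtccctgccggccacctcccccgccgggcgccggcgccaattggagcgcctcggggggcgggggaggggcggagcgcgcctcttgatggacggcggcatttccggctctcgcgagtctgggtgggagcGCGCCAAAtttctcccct
TYMS (chr18:657493-657652, plus strand): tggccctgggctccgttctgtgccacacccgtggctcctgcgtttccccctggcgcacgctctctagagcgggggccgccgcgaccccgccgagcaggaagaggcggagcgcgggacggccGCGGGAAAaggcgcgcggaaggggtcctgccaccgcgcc
E2F2 (chr1:23531234-23531393, minus strand): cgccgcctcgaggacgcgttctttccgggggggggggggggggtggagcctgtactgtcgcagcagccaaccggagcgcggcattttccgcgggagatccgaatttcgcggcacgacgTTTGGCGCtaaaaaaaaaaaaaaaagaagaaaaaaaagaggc
E2F7 (chr12:77065570-77065729, minus strand): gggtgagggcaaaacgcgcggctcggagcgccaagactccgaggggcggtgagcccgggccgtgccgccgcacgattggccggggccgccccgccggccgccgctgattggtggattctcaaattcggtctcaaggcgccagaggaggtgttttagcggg
RFC4 (chr3:186806483-186806642, minus strand): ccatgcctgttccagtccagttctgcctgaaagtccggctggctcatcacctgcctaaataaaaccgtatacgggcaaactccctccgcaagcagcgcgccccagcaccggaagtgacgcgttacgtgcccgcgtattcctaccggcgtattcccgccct

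The libraries were checked before the members were compared. The labels give no depth. FPKM times span clustered at regular steps in 68 to 80 short genes, and if a step is 1 fragment, the member with the fewest had about 146 fragments in TGF-b1+DP, 164 in TGF-b1 and 251 in DMSO. The counting SD of such a member is 6.32 to 8.27%, which leaves out the spread between cultures. Of 10 stellate cell markers, 8 reached 1 FPKM in each library, with VIM at 2800, 2734 and 1936 FPKM, while LUM was at 0 in all 3 and DES at 0.03, 0 and 0.03 FPKM. Summed levels of 4 hepatocyte markers were 88.9, 2.37 and 4.50 FPKM, of which SERPINA1 made up 88.5, 1.93 and 3.99, with ALB at 0, 0 and 0.02 FPKM. Summed FPKM over all genes was 429399, 546754 and 443566, so directions between libraries can depend on scaling.

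Together the 56 genes held 0.471% of the summed FPKM in TGF-b1+DP, 0.501% in TGF-b1 and 0.753% in DMSO. Their median level was 21.6, 24.2 and 30.6 FPKM. The highest was MCM7 (182 FPKM) in TGF-b1+DP, PCNA (367) in TGF-b1 and TK1 (310.1) in DMSO, and the lowest was E2F2 (1.39), CCNE2 (2.31) and E2F8 (5.14). DMSO was the highest library for 42 members (75%), against 40.3% of all genes kept. TGF-b1 was highest for 13 (23.2%), against 35.9%, and TGF-b1+DP for 1, E2F7 (1.79%), against 23.9%. DMSO was the lowest for none of the 56, against 20% of all genes kept. With libraries scaled to the same total FPKM DMSO was highest for 50 members (46.7% of all genes) and lowest for none (15.1%). Under median-of-ratios scaling it was highest for 31 (25.2%) and lowest for 1 (34.6%). Which treated library was lowest for more members depended on the scaling. As deposited TGF-b1+DP was lowest for 37 members (66.1%, against 37.2% of all genes) and TGF-b1 for 19 (33.9%, against 42.9%). With the same total FPKM TGF-b1+DP was lowest for 22 (39.3%, against 22.4%) and TGF-b1 for 34 (60.7%, against 62.5%). Under median-of-ratios scaling these were 36 (64.3%, against 28.2%) and 19 (33.9%, against 37.2%). TGF-b1+DP was thus lowest more often than over all genes under each scaling. In a bulk library, fewer cells in S phase and less RNA of these genes per cell cannot be told apart.

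**Figure D2:**
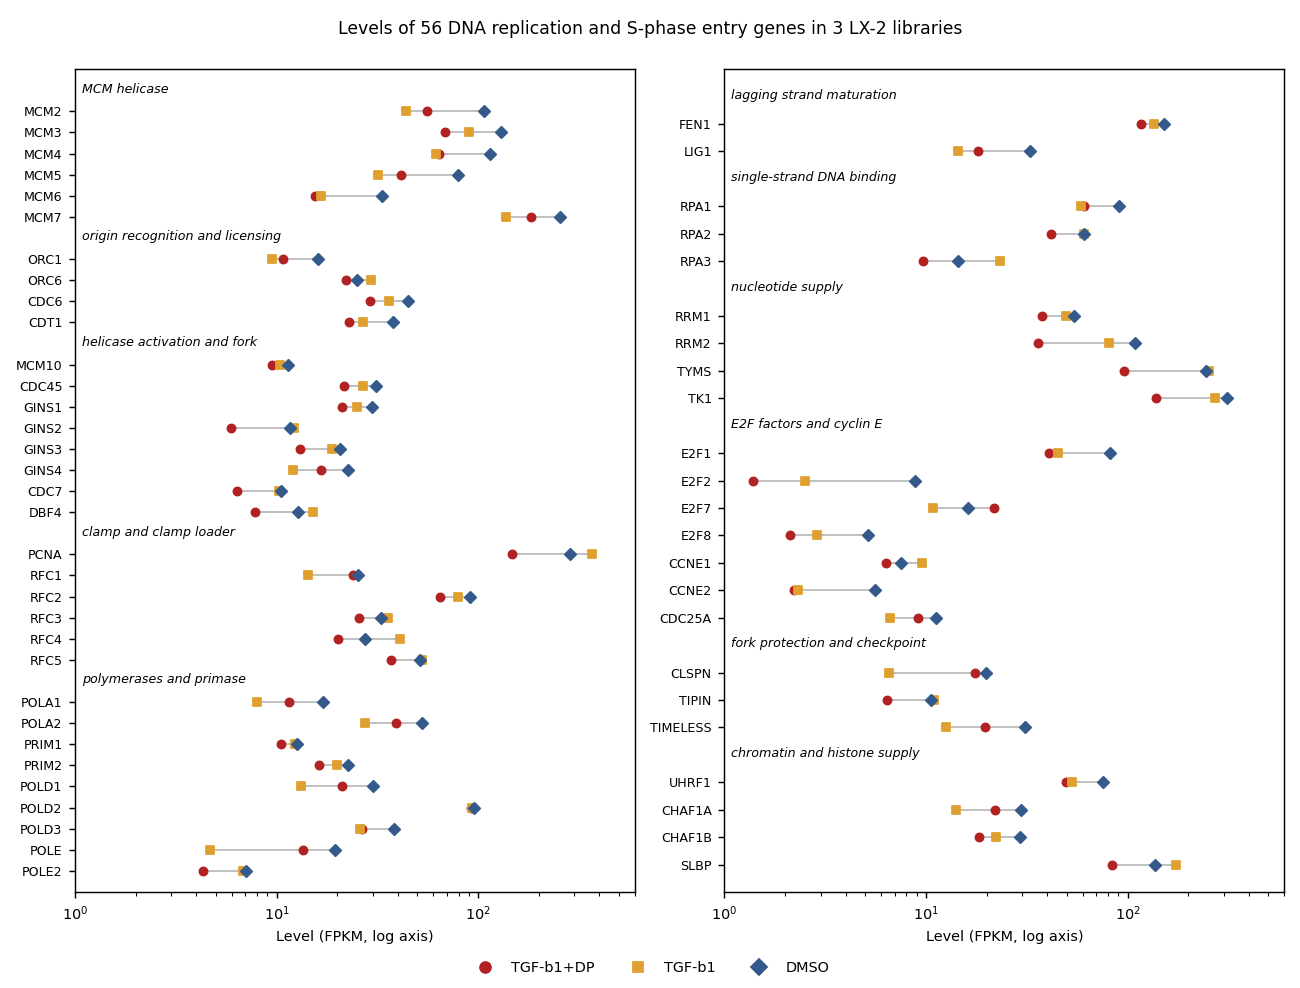
Level of each of the 56 genes (FPKM, log axis) in the TGF-b1+DP, TGF-b1 and DMSO libraries, grouped by role, 1 point per library. The blue diamonds of DMSO lie at the right for 42 genes and never at the left. The red circles of TGF-b1+DP lie at the left for 37 genes (66.1%, against 37.2% of all genes as deposited). With the same total FPKM TGF-b1+DP was lowest for 22 genes (39.3%, against 22.4%).

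TGF-b1 alone against DMSO sets the library with the cytokine beside the library with DMSO. Treatment and other differences between single cultures or libraries cannot be told apart. Differences are log2 of (FPKM+1) over (FPKM+1), and a gene is called at a difference of 1, which is 2-fold on this scale. None of the 56 genes was higher by that amount, against 2.31% of all genes kept, and 9 (16.1%) were lower, against 6.73%. The 9 were POLE (-1.86), E2F2 (-1.48), CLSPN (-1.48), MCM5 (-1.29), MCM2 (-1.27), TIMELESS (-1.24), LIG1 (-1.14), POLD1 (-1.13) and CHAF1A (-1.01). Of the 56 members 43 were below 0, against 57.2% of all genes, with a median of -0.41 against -0.10 for all genes. RPA3 (0.65) and RFC4 (0.56) were highest. With the same total FPKM 18 were lower, against 13.8% of all genes, and the median was -0.70. Under median-of-ratios scaling 33 were below 0, against 46.4% of all genes, 6 were lower, against 4.3%, and the median was -0.23, against 0.05. With the trend in transcript length and GC content removed, 3 were lower (POLE, CLSPN and CCNE2), against 1.84%, and the median was -0.38.

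TGF-b1+DP against TGF-b1 sets the library that also received DP beside the library with the cytokine alone. Here too, treatment and library cannot be told apart. As deposited, 2 members were higher, against 6.19% of all genes, and 5 were lower (8.93%), against 4.26%. Higher were POLE (1.36), the catalytic subunit of the leading-strand polymerase, and CLSPN (1.29), which encodes claspin. Lower were TYMS (-1.39), PCNA (-1.31), RPA3 (-1.19), RRM2 (-1.14) and SLBP (-1.05). Of the 56, 37 were below 0, against 50.2% of all genes, and the median was -0.23, against -0.00. With the same total FPKM 22 were below 0, against 31% of all genes, and 34 above, and 15 members changed sign. The median was then 0.10, against 0.29 for all genes, so it stayed below that of all genes. Of the members 4 were higher, against 12.7% of all genes, and 1 lower, against 1.1%. Under median-of-ratios scaling no member changed sign, 37 were below 0, against 51.4% of all genes, and the median was -0.25, against -0.02. There 2 were higher, against 5.97%, and 6 lower, against 4.59%. With the length and GC trend removed 1 was higher (CLSPN, 1.19), against 3.24%, and 2 lower (RRM2, -1.12, and E2F2, -1.02), against 2.49%, and the median was -0.07. This comparison and the one before share the TGF-b1 library, which enters them with opposite sign.

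TGF-b1+DP against DMSO leaves the TGF-b1 library out of the difference. In it 55 of 56 members were below 0, against 62.8% of all genes, and the exception was E2F7 (0.40). None was higher by 1, against 2.45% of all genes, and 6 (10.7%) were lower, against 2.88%. The 6 were E2F2 (-2.04), RRM2 (-1.58), TYMS (-1.33), TK1 (-1.15), MCM6 (-1.06) and CCNE2 (-1.03). The median was -0.54, against -0.10 for all genes; it was -0.50 with the same total FPKM, -0.46 with the length and GC trend removed and -0.38 under median-of-ratios scaling. The number below 0 was 55 with the same total FPKM (57.7% of all genes), 54 with the trend removed (51.8%) and 53 under median-of-ratios scaling (44.1%). Under median-of-ratios scaling 3 members were lower by 1, against 1.9% of all genes.

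**Figure D3:**
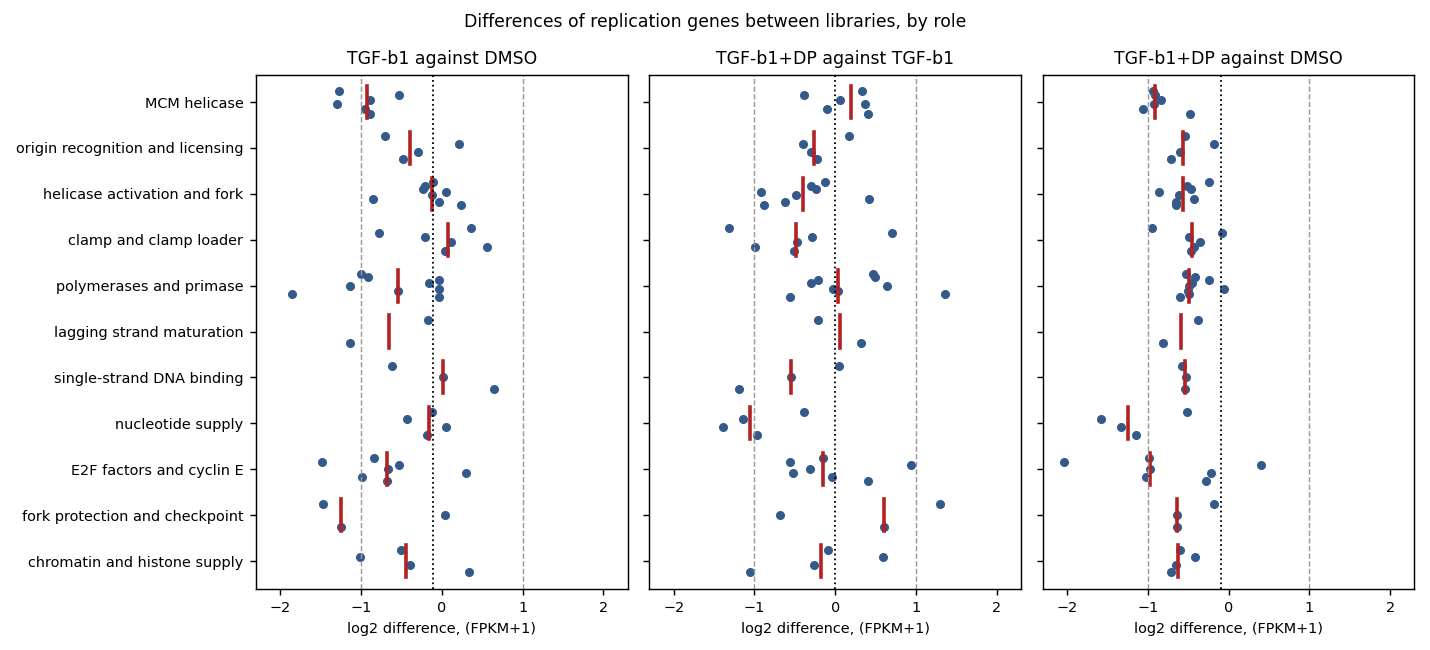
Differences of single genes (points, log2 of FPKM+1) in the 3 comparisons, by role, with the group median as a red bar, the median of all genes kept as a dotted line and the call threshold of 1 as dashed lines. In TGF-b1+DP against DMSO every point but E2F7 lies below 0, and the median of the nucleotide supply genes is at -1.24.

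The MCM helicase subunits were lower in both treated libraries than in DMSO, in all 6 genes and under each scaling tried. MCM7 was at 182 FPKM in TGF-b1+DP, 137 in TGF-b1 and 255 in DMSO, and MCM3 at 68.9, 90.0 and 130.3. MCM4 was at 64.0, 61.6 and 115 FPKM, MCM2 at 55.8, 44.0 and 107, and MCM5 at 41.3, 31.8 and 79.2. MCM6 was lowest of the ring in every library, at 15.5, 16.7 and 33.3 FPKM, although the 6 proteins assemble in equal number. The summed level of the 6 was 428 FPKM in TGF-b1+DP, 381 in TGF-b1 and 720.2 in DMSO, so as deposited the treated libraries lay closer to each other than either did to DMSO. Against DMSO the group median was -0.92 in TGF-b1+DP and -0.92 in TGF-b1. Between TGF-b1+DP and TGF-b1 the median was 0.19, with 4 above 0 and 2 below, and none reached 1. Exons of MCM7 overlap those of AP4M1 by 392 bases, so part of its reads may belong to that gene, which was at 9.95, 10.6 and 11.8 FPKM.

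Loading factors stayed within 1 in every comparison. CDC6, the ATPase that helps load the ring, was at 29.1 FPKM in TGF-b1+DP, 36.2 in TGF-b1 and 44.8 in DMSO. CDT1, its partner, was at 22.8, 26.9 and 38.0 FPKM. Both had their highest level in DMSO. As deposited their lowest was in TGF-b1+DP, and with the same total FPKM it was in TGF-b1. ORC1, the largest subunit of the origin recognition complex, was at 10.7, 9.46 and 15.99 FPKM. ORC6, which shares a short near-identical stretch with other genes, was at 22.0, 29.3 and 25.0 FPKM. Geminin, encoded by GMNN and an inhibitor of CDT1, is no member; it was at 33.0, 67.8 and 42.5 FPKM (-1.02 for TGF-b1+DP against TGF-b1).

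The factors that start the helicase differed little between TGF-b1 and DMSO, with a group median of -0.12, near that of all genes. Against DMSO all 8 were below 0 in TGF-b1+DP, with a median of -0.56 and none past 1. CDC45, which joins the helicase with GINS, was at 21.5 FPKM in TGF-b1+DP, 26.8 in TGF-b1 and 31.1 in DMSO. GINS2 was at 5.95, 12.1 and 11.7 FPKM, the lowest ratio of this group for TGF-b1+DP against TGF-b1 (0.490). The kinase CDC7 was at 6.36, 10.3 and 10.6 FPKM and its activator DBF4, which shares exons with SLC25A40, at 7.78, 15.2 and 12.8. These 3 genes were lowest in TGF-b1+DP under each scaling tried. GINS4 had another order, at 16.5, 12.1 and 22.6 FPKM, with TGF-b1 lowest. GINS1 was at 21.2, 25.2 and 29.8 FPKM, GINS3 at 13.1, 18.8 and 20.6, and MCM10, a scaffold of the starting fork, at 9.46, 10.4 and 11.4.

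PCNA, the sliding clamp that tethers polymerases to DNA (chromosome 20, 5114953 to 5126626, GRCh38), differed widely between libraries. It was at 147 FPKM in TGF-b1+DP, 367 in TGF-b1 and 285 in DMSO. Its difference was -1.31 for TGF-b1+DP against TGF-b1 (-0.75 with the length and GC trend removed) and -0.95 against DMSO (-0.88 with it removed). The clamp loader subunits did not share 1 pattern. RFC4 was at 20.1, 40.9 and 27.3 FPKM, highest in TGF-b1, whereas RFC1, the large subunit, was at 23.9, 14.3 and 25.3, lowest in TGF-b1. RFC2 was at 64.8, 79.1 and 91.4 FPKM, RFC3 at 25.7, 35.9 and 33.0, and RFC5, which shares exons with WSB2, at 36.8, 52.7 and 51.5. The longest transcript of RFC1 has 4886 bases, and those of RFC2 to RFC5 have 1448 to 2449. With the length and GC trend removed RFC1 was at -0.74 in TGF-b1 against DMSO (-0.78 as deposited). It was then at 0.67 in TGF-b1+DP against TGF-b1 (0.70 as deposited). For RFC4 the same values were 0.11 (0.56) and -0.46 (-0.99). Whether length has a part in the different orders was not tested.

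Among the polymerases and primase, the large catalytic subunits were lowest in TGF-b1. POLE was at 13.5 FPKM in TGF-b1+DP, 4.65 in TGF-b1 and 19.5 in DMSO. POLA1, which extends primers, was at 11.5, 8.01 and 17.0 FPKM, and POLD1, of the lagging-strand polymerase, at 21.2, 13.2 and 30.2. In each the order was DMSO, then TGF-b1+DP, then TGF-b1. POLE2, a small subunit of the same enzyme as POLE, was at 4.30, 6.83 and 7.02 FPKM. The 2 subunits thus differed in which treated library was lower. The longest transcript of POLE has 8011 bases and that of POLE2 has 1792. With the length and GC trend removed POLE was at -1.04 in TGF-b1 against DMSO (-1.86 as deposited) and POLD1 at -0.59 (-1.13). POLE2 was then at -0.43 (-0.03). In TGF-b1+DP against TGF-b1 POLE was then at 0.64 (1.36), POLD1 at 0.34 (0.64), POLA1 at 0.34 (0.47) and POLE2 at -0.11 (-0.56). Whether length has a part in the different orders was not tested. POLD2 varied least of all members, at 91.8, 93.2 and 95.3 FPKM, and was above 0 in TGF-b1+DP against DMSO with the length and GC trend removed and under median-of-ratios scaling. POLA2 was at 39.0, 27.4 and 52.6 FPKM and POLD3 at 26.6, 25.9 and 38.2. The primase genes PRIM1, at 10.5, 12.3 and 12.6, and PRIM2, at 16.2, 20.04 and 22.5, lay within 1 in each comparison. PRIM1 shares exons with HSD17B6, which was at 0.13, 0.43 and 0.41 FPKM.

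FEN1, the nuclease that trims Okazaki fragments, was at 116 FPKM in TGF-b1+DP, 135 in TGF-b1 and 152 in DMSO. Exons of FEN1 overlap those of TMEM258 by 166 bases, and TMEM258 was at 66.5, 145 and 87.1 FPKM. Part of the FEN1 reads may therefore belong to TMEM258. LIG1, the ligase that seals Okazaki fragments, was at 18.2, 14.3 and 32.7 FPKM. Its difference for TGF-b1 against DMSO was -0.96 under median-of-ratios scaling, short of the threshold. Of the 3 subunits of the single-strand DNA binding protein RPA, RPA1 was at 60.6, 58.7 and 90.8 FPKM. RPA2 was at 41.6, 61.1 and 60.7 FPKM and RPA3 at 9.61, 23.2 and 14.4. In TGF-b1+DP against DMSO the 3 subunits were at nearly the same difference (-0.58, -0.53 and -0.54), while in TGF-b1 against DMSO they ran from -0.62 to 0.65. RPA1 and RPA3 share exons with a neighbour.

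The enzymes that make DNA precursors had the lowest group median of all roles in TGF-b1+DP against DMSO (-1.24) and against TGF-b1 (-1.05). RRM2, the regulated subunit of ribonucleotide reductase, was at 35.9 FPKM in TGF-b1+DP, 80.5 in TGF-b1 and 109 in DMSO. TYMS, thymidylate synthase, was at 96.1, 254 and 244 FPKM. TK1, the S-phase thymidine kinase, was at 139, 273 and 310.1 FPKM. All 3 were lowest in TGF-b1+DP, and as deposited TYMS and TK1 were close in TGF-b1 and DMSO. RRM1, the subunit known to vary less over the cycle, was at 37.8, 49.8 and 54.3 FPKM. In TGF-b1 against DMSO the group median was -0.15, near that of all genes. The -1.58 of RRM2 against DMSO was -1.50 with the length and GC trend removed, the -1.33 of TYMS was -1.21 and the -1.15 of TK1 was -0.89. TYMS shares 967 bases of exon with ENOSF1, which was at 3.45, 5.94 and 7.39 FPKM. Outside the members, DUT, which removes dUTP, was at 38.5, 106 and 74.4 FPKM.

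The E2F genes held both ends of the list in TGF-b1+DP against DMSO. E2F2, an activator, was at 1.39 FPKM in TGF-b1+DP, 2.52 in TGF-b1 and 8.83 in DMSO, a ratio of 0.157 for TGF-b1+DP over DMSO. E2F1, the best known activator (chromosome 20, 33675683 to 33686404), was at 40.8, 45.3 and 82.0 FPKM. E2F1 and E2F2 were thus lower in both treated libraries than in DMSO. E2F3, an E2F gene outside the members, was at 7.15, 6.83 and 7.53 FPKM. Its differences against DMSO were -0.07 in TGF-b1+DP and -0.12 in TGF-b1. E2F8, a repressor of late S phase, was at 2.12, 2.88 and 5.14 FPKM, while E2F7, the related repressor, was at 21.6, 10.8 and 16.1. E2F7 was the only member above its DMSO level in TGF-b1+DP as deposited. CCNE2, one of the E cyclins, was at 2.22, 2.31 and 5.57 FPKM; its exons overlap those of INTS8 by 1629 bases, and INTS8 was at 7.19, 7.41 and 8.37. CCNE1, the other E cyclin, was at 6.33, 9.51 and 7.53 FPKM, and the 2 cyclins therefore did not follow the same order. CDC25A, the phosphatase that activates CDK2, was at 9.09, 6.64 and 11.2 FPKM.

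In the fork protection complex CLSPN was at 17.5 FPKM in TGF-b1+DP, 6.53 in TGF-b1 and 19.95 in DMSO, and TIMELESS at 19.6, 12.6 and 31.2. Both were lowest in TGF-b1. TIPIN, the partner of TIMELESS, was at 6.39, 10.9 and 10.5 FPKM and lowest in TGF-b1+DP. Among chromatin genes UHRF1, which guides maintenance methylation behind the fork, was at 49.5, 52.8 and 75.5 FPKM. CHAF1A and CHAF1B, the chaperone that places new histones, were at 21.9, 14.2 and 29.5, and at 18.4, 22.2 and 29.3. SLBP, which binds the stem-loop of histone mRNA, was at 83.3, 174 and 137 FPKM, with TGF-b1 highest and TGF-b1+DP lowest.

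Transcript length went along with these differences. Over the 56 genes, by the longest GENCODE transcript of each, TGF-b1 against DMSO correlated with log2 length at r = -0.75 (Spearman rho -0.72), against r = -0.43 over 11280 genes kept that had a length. TGF-b1+DP against TGF-b1 correlated at r = 0.68 (0.48 over all genes), and TGF-b1+DP against DMSO at r = -0.00 (0.10 over all genes). These are correlations across genes of the same libraries, given as a description. Among the 14 members with the shortest transcripts (1359 to 2090 bases) 5 were below 0 in TGF-b1 against DMSO, and all 14 were below 0 in TGF-b1+DP against both other libraries. Among the 14 longest (4183 to 8011 bases) all 14 were below 0 in TGF-b1 against DMSO, and 13 in TGF-b1+DP against DMSO. The medians of the shortest and longest 14 were 0.05 and -0.83 in TGF-b1 against DMSO, -0.63 and 0.21 in TGF-b1+DP against TGF-b1, and -0.54 and -0.59 in TGF-b1+DP against DMSO. With the length and GC trend removed the medians were -0.19 and -0.70, -0.24 and -0.03, and -0.44 and -0.50. The trend was fitted over all genes kept with a length, not over the members. A gap between the shortest and longest members thus remained, so values with the trend removed are not free of length. Whether the trend comes from RNA quality, library preparation or the cells was not tested.

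**Figure D4:**
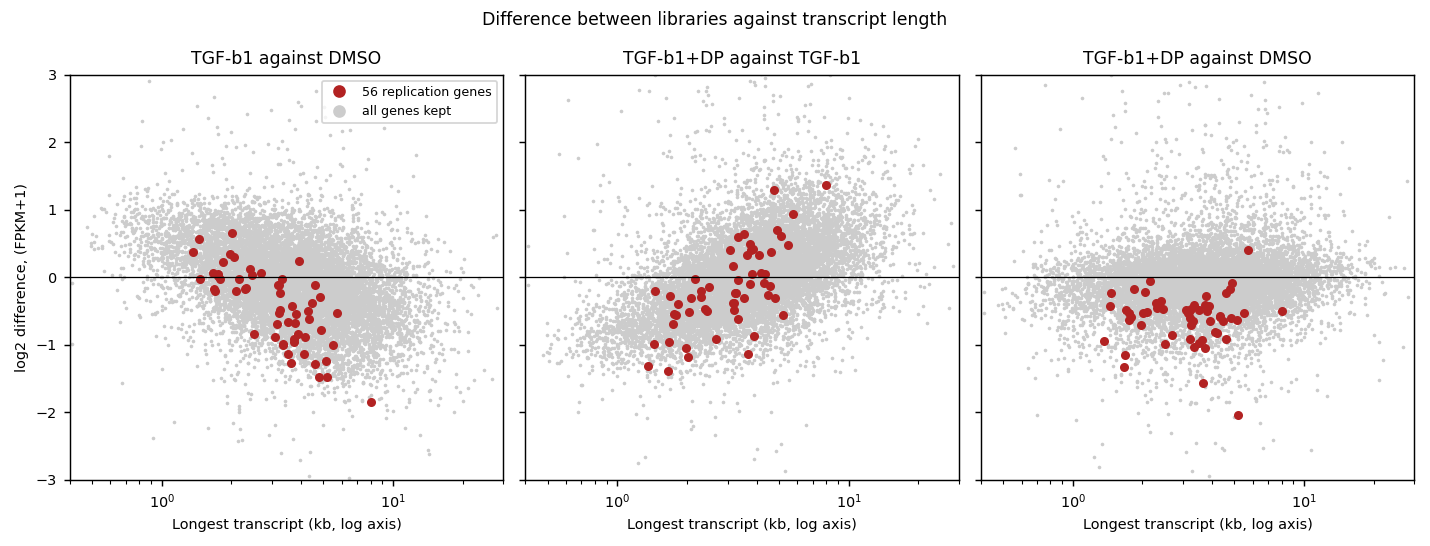
Difference (log2 of FPKM+1) against the length of the longest transcript (kb, log axis) for 56 replication genes in red and all genes kept in grey, in the 3 comparisons. The red points slope down in TGF-b1 against DMSO (r = -0.75), up in TGF-b1+DP against TGF-b1 (r = 0.68) and lie flat in TGF-b1+DP against DMSO.

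The 22 members with an E2F-type site were set beside the 26 whose window held none. Their medians were -0.60 and -0.17 in TGF-b1 against DMSO, -0.19 and -0.29 in TGF-b1+DP against TGF-b1, and -0.61 and -0.49 in TGF-b1+DP against DMSO. In TGF-b1 against DMSO 5 of the 22 and 3 of the 26 were lower by 1, against 6.73% of all genes. In TGF-b1+DP against DMSO these counts were 3 and 2, against 2.88%. With single libraries the gap between the members with and without a site was not tested. The medians are as deposited, without removal of the length and GC trend. Over the 56 members TGF-b1 against DMSO correlated with log2 length at r = -0.75, and the share of length in the gap was not tested.

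Another 91 genes of replication, nucleotide supply, chromatin assembly, the RB pathway and the fork checkpoint were listed, of which 90 passed the filter. In TGF-b1+DP against DMSO 72 of the 90 were below 0 (62.8% of all genes) and 17 above, with a median of -0.28. Of them 3 were lower by 1, against 2.88% of all genes, and 1 higher, against 2.45%, shares near those of all genes. The lower genes were led by MYBL2 (-1.18), an E2F target and mitotic activator, and ASF1B (-1.11), a histone chaperone. The higher one was CDK6 (1.18), a kinase partner of the D cyclins, at 12.2, 4.04 and 4.83 FPKM. In TGF-b1 against DMSO 1 was higher (1.11%, against 2.31% of all genes), NME1 (1.21). There 6 were lower (6.67%, against 6.73%), a share near that of all genes, led by CHTF8 (-2.34), of an alternative clamp loader. In TGF-b1+DP against TGF-b1 4 were higher (4.44%, against 6.19%) and 4 lower (4.44%, against 4.26%), led by CHTF8 (2.35) and DUT (-1.43).

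Mitosis genes and the D cyclins with their inhibitors were listed beside the members. All 36 mitosis and chromosome segregation genes were below 0 in TGF-b1+DP against DMSO (62.8% of all genes), with 8 lower by 1 (22.2%, against 2.88%) and a median of -0.67, led by KIF20A (-1.88), a mitotic kinesin. In TGF-b1 against DMSO 4 of the 36 were lower (11.1%, against 6.73%) and their median was -0.27. In TGF-b1+DP against TGF-b1 7 were lower (19.4%, against 4.26%), with a median of -0.40. With the same total FPKM that median was -0.06, against 0.29 for all genes, and 3 were lower (8.33%, against 1.1%). With 1 library per group, the gap between the replication and mitosis medians was not tested. Of the 10 D cyclins and CDK inhibitors listed 9 passed the filter. In TGF-b1+DP against DMSO 8 of the 9 were below 0 (62.8% of all genes). Of the 9, 1 was higher (11.1%, against 2.45%) and 2 were lower (22.2%, against 2.88%). Cyclin D1, encoded by CCND1 and upstream of E2F, was highest in TGF-b1+DP, at 440.1 FPKM, against 86.2 in TGF-b1 and 89.7 in DMSO. As deposited, the other D cyclins were lowest in TGF-b1+DP, CCND3 at 51.5, 64.85 and 58.5 FPKM and CCND2 at 0.82, 1.47 and 0.98. CCND2 was near the filter of 1 FPKM, and the order of both can depend on scaling. Of the inhibitors, CDKN2C was at 19.3, 66.2 and 70.9 FPKM, CDKN2B, a known TGF-beta target, at 2.23, 6.57 and 2.75, and CDKN1A at 22.3, 17.5 and 22.8. CDKN2D was at 16.3, 25.3 and 34.6 FPKM (-1.04 for TGF-b1+DP against DMSO), CDKN1B at 24.2, 33.6 and 40.3, and CDKN2A at 91.9, 183 and 109. CDKN1C, at 0.20, 0.51 and 0.63 FPKM, did not pass the filter.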

How the data were processed

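RNA-seq of 3 LX-2 libraries, 1 per treatment, was used. The authors deposited FPKM values to 2 decimals, per the file headers. Per the submitters' processing notes, BWA, Bowtie, Cufflinks and Cuffdiff were used with GRCh38.p13. Their versions, the annotation and the strand setting are not known from these sources. Because FPKM is a share of each library's fragments, abundant transcripts move all other values. Of 17596 lines 20 held no gene and were left out. The filter, a 3-library mean of at least 1 FPKM, kept 11327 genes. A pseudocount of 1 FPKM was used, which understates differences of low genes. Values were otherwise used as deposited. Transcript length, GC content and positions came from GENCODE release 29 (GRCh38), by Entrez identifier, which gave a length to all 56 members. The difference with the length and GC trend removed is the residual of a quadratic fit in log2 length and GC content over the 11280 kept genes with a length. A member shares reads where exons overlap another measured gene by at least 100 bases or at least 200 bases match at 97% identity (10 members). Promoters came from RefSeq (GRCh38.p14). Values in all 3 libraries are given for each member. The tools were minimap2 2.31, scipy 1.17.1, pandas 2.3.3, numpy 2.4.6 and matplotlib 3.10.9 under Python 3.11.15. The procedure was run on simulated data whose only noise was counting error, which cannot check the spread between cultures. The members and lists were chosen with earlier results of these data known. Promoters were shown by the size of the difference, except those of E2F2, E2F7 and MCM6, chosen after their values were seen.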

Additional observations from a re-analysis of the deposited data

How the results depend on the processing

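No paired analysis was possible because each group has 1 library. The counts called at 1 depended on the processing, and a median was taken as moved where the level it stands for changed 1.5-fold. With the same total FPKM 18 members were lower in TGF-b1 against DMSO (9 as deposited), and in TGF-b1+DP against TGF-b1 4 were higher and 1 lower (2 and 5 as deposited), where the median was 0.10 (-0.23 as deposited). With the length and GC trend removed 3 were lower in TGF-b1 against DMSO, and 1 was higher and 2 lower in TGF-b1+DP against TGF-b1. Without the 10 members that share reads 3 were lower in TGF-b1+DP against TGF-b1. Under median-of-ratios scaling 3 were lower in TGF-b1+DP against DMSO (6 as deposited), with MCM6, TK1 and CCNE2 short of the threshold. Medians that kept their sign still differed in size: in TGF-b1 against DMSO the median was -0.41 as deposited, -0.70 with the same total FPKM and -0.23 under median-of-ratios scaling, and in TGF-b1+DP against TGF-b1 it was -0.07 with the length and GC trend removed. The cause was not tested. The other counts stayed within 1.5 times, and the other medians kept their sign, under the 7 settings tried, among them a pseudocount of 0.1 FPKM, no filter and a mean of at least 5 FPKM (53 members). No member called at 1 changed sign under a scaling, the pseudocount or the removal of the trend. The median of all genes was -0.37 with the same total FPKM and 0.05 under median-of-ratios scaling in TGF-b1 against DMSO (-0.10 as deposited), and 0.29 and -0.02 in TGF-b1+DP against TGF-b1 (-0.00). With 1 library per group the spread between cultures is unknown, and the estimated depth covers counting error only.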
